A study of Rattus norvegicus with 58 samples.

Results

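The chemokines of the rat joint described here are 9 genes, 8 ligands and 1 receptor, followed through arthritis and its treatment with a defensin peptide. The ligands were Cxcl1 (ENSRNOG00000002802), Cxcl2 (ENSRNOG00000002792), Cxcl10 (ENSRNOG00000022256), Cxcl12 (ENSRNOG00000013589), Ccl2 (ENSRNOG00000007159), Ccl3 (ENSRNOG00000011205), Ccl4 (ENSRNOG00000011406) and Ccl5 (ENSRNOG00000010906), and the receptor was Cxcr4 (ENSRNOG00000003866). They were picked by identifier, and all 9 were found among the 16879 identified genes of the table. Reads of 75 nt from synovial RNA gave 58 libraries in 10 groups. Untreated arthritic rats (PIA, n = 4) were female DA/OlaHsd rats, 6 to 8 weeks old, in which an injection of 250 µl of pristane, a hydrocarbon oil, had led to a score of 3 or more on both rear limbs. Further PIA rats received RTD-1 (rhesus theta-defensin 1, a macrocyclic peptide) at 5 mg/kg under the skin, in saline, and were sampled on day 1 (4 libraries), day 3 (8 libraries) or day 5 (8 libraries). Saline controls numbered 4 on day 1, 8 on day 3 and 8 on day 5. Rats without arthritis were sampled after 3 or 5 days of RTD-1 (healthy RTD-1, 5 libraries per time), and 4 naive libraries gave the baseline. Healthy rats on saline were not analysed here, and the labels do not tie libraries to animals, so p-values measure the spread between libraries, which may be technical.

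Chemokines are small secreted proteins that steer leukocytes through receptors coupled to G proteins. In an inflamed joint, Cxcl1 and Cxcl2 draw neutrophils through Cxcr2, Ccl2 draws monocytes through Ccr2, and Ccl3, Ccl4 and Ccl5 draw monocytes and T cells. Cxcl10 is an interferon-induced attractant of T cells that act through Cxcr3. Cxcl12 differs from these in being made steadily by stromal and endothelial cells, and it retains or recruits leukocytes that carry its receptor, Cxcr4.

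Upstream sequences are shown for 4 members because their levels took different courses below, and because transcription of the inflammatory ligands is classically driven by NF-kB. RefSeq (build GRCr8) entries were found for 5 of the 9 members, these 4 and Cxcl2, and each run holds the 250 bases before the annotated start, 5′ to 3′ along the gene. Capitals mark matches, on either strand, to the 10-base NF-kB motif or to the interferon response motif, a pair of GAAA copies with any 2 bases between them.
Cxcl1 (chr14:17479322-17479571, minus strand): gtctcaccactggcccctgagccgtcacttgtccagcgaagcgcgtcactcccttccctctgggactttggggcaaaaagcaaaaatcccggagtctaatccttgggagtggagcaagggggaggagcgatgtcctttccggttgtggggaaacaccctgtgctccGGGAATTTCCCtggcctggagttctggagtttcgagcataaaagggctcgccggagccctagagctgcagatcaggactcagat
Cxcl10 (chr14:15988816-15989065, plus strand): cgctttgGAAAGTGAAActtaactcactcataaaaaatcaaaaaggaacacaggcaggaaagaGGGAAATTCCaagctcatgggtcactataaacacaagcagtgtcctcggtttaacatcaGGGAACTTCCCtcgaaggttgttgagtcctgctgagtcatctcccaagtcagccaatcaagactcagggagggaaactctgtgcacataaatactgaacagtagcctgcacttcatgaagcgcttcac
Cxcl12 (chr4:152060531-152060780, plus strand): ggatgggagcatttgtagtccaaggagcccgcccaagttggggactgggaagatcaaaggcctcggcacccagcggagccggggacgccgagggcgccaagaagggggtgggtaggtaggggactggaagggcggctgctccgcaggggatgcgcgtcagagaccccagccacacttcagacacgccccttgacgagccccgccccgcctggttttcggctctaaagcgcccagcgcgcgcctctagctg
Cxcr4 (chr13:42634289-42634538, minus strand): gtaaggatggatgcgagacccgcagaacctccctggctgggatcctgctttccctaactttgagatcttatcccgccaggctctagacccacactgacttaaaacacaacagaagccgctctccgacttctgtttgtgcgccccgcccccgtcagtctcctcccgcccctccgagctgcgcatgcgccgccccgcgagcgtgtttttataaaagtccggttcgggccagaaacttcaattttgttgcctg
The Cxcl1 run holds overlapping NF-kB matches on the 2 strands, the first of them beginning 84 bases before the start. The Cxcl10 run holds the interferon response motif 243 bases before the start and NF-kB matches 187 and 128 bases before it, the nearer of them overlapped by a match on the other strand. The Cxcl2 window, not printed, holds overlapping NF-kB matches beginning 74 bases before the start. No match lies in these windows of Cxcl12 and Cxcr4. Among 33469 rat windows of the same length, 6.33% hold the NF-kB motif and 3.41% the interferon response motif. These matches are descriptions of letters, not measured binding sites.

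Levels below are normalized reads, that is, reads of a gene scaled by the deposited factor of its library to the library of median depth. Depth, as reads assigned to genes, ranged from 464693 to 7716834 around a median of 2197481. Replicates 6 and 8 of RTD-1 day 3 were the shallowest, and the healthy RTD-1 libraries, with at least 4437281 reads, were deeper than the naive ones, with at most 2396818. Log2 fold changes come from limma on log2(normalized reads + 1), a scale that understates changes of low values, and a gene was called at a two-sided adjusted p under 0.05 over all 13062 genes tested. Cxcl2 and Ccl4 had too few reads for that test, so 7 of the 9 members entered it. In bulk tissue, fewer cells of a type and less RNA per cell cannot be told apart. No symbols could be paired with the identifiers of other genes, so markers of synovial cell types, other chemokines and other receptors were not analysed here.

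Synovium of untreated PIA rats held far more transcript of Ccl2, Cxcl1 and Cxcr4 than naive synovium, and less of Cxcl12. Of the 7 members tested, limma called 5, with Ccl2, Cxcl1, Cxcr4 and Ccl3 higher and Cxcl12 lower, while it called 39.3% of all genes tested (27.8% higher and 11.4% lower). The median change of the 7 was 2.12 log2, the value of Ccl3, beside 0.28 for all genes. Cxcl1, Ccl3 and Ccl5 had enough reads for the test in arthritic libraries alone. That selection favours higher values in arthritic tissue, so the median and the count of 5 are no test of the members as a set. TMM factors set the median gene at 0.00 and turned the split over all genes to 2578 higher and 2562 lower, against 3637 and 1493 as deposited, and the 5 members were called in the same directions with those factors.

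Ccl2, the main monocyte attractant among the CC ligands, read 439, 498, 279.7 and 293 normalized reads in the PIA libraries, against 9.78, 25.0, 31.9 and 17.7 in the naive libraries. The lowest PIA library lay far above the highest naive one. The log2 fold change was 4.17 (SE 0.58, limma adjusted p = 1.01e-07), or 18.0-fold, and all 4 PIA libraries were higher.

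Cxcl1, the rat neutrophil attractant also known as CINC-1, stood at 64.3, 119, 27.9 and 70.0 normalized reads in PIA and at 1.78, 7.69, 2.99 and 8.33 in naive tissue. The groups did not overlap, although PIA replicate 3 was much lower than the other three. The change was 3.53 log2 (SE 0.68, limma adjusted p = 3.69e-05). Its close relative Cxcl2, a neighbour of Cxcl1 on the same chromosome, was barely detected, with 6.76, 4.97, 0 and 1.92 normalized reads in PIA and 0, 0, 0 and 1.04 in naive tissue. That amounted to 13 reads in PIA against 1 in naive libraries, a ratio of 14.0 with an exact 95% interval from 2.10 to 595 that covers counting error only. Without the filter on low values, limma called Cxcl2 higher in PIA (adjusted p = 0.0119). Whether reads that match more than one gene were shared out between such relatives is not given in the sources used here.

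Ccl3, which attracts monocytes and neutrophils, was also scarce, at 2.25, 15.9, 5.57 and 4.80 normalized reads in PIA and 0, 0.961, 1.995 and 0 in naive libraries. No naive library reached the lowest PIA library, yet the naive values rest on 3 reads and the PIA values on 28. The lowest PIA library (replicate 1) and the highest naive one (replicate 3) held 2 reads each, so the deposited factors alone set them apart. Scaled to reads in genes, 2536140 and 2396818, the naive library would be the higher of the pair. The ratio of these reads was 10.1 (exact 95% interval 3.10 to 51.7, counting error only), and the fitted change was 2.12 log2 (SE 0.80, limma adjusted p = 0.0297). Without PIA replicate 2, the highest library, the ratio was 5.84 (1.58 to 32.3) and the adjusted p 0.129. The ratio was 22.8 without naive replicate 3, which held 2 of the 3 naive reads. The adjusted p was 0.0810 without naive replicate 1 and 0.0827 without naive replicate 4. Ccl4, the neighbour of Ccl3, had reads in PIA replicate 2 alone, at 6.96 normalized reads, and stood at 4.44, 0, 1.995 and 0 in naive libraries. Both groups held 7 reads of Ccl4 in all.

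Ccl5, a T cell and monocyte attractant, stood at 7.89, 2.98, 2.23 and 0 normalized reads in PIA and at 0.889, 0, 0 and 2.08 in naive tissue. The ranges overlapped because PIA replicate 4 had no read. The change of 1.07 log2 (SE 0.63) did not pass, with a limma adjusted p of 0.175, and was called without PIA replicate 4 (1.64 log2, limma adjusted p = 0.0453). Cxcl10 stood at 5.64, 22.9, 4.46 and 10.6 normalized reads in PIA and at 10.7, 13.4, 6.98 and 4.17 in naive tissue. Both groups covered much the same range, and the change of 0.13 log2 (95% interval -1.35 to 1.61, limma adjusted p = 0.909) turned to -0.13 with TMM factors.

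The receptor Cxcr4 and its ligand Cxcl12 moved in opposite directions. Cxcr4 read 109, 117, 96.9 and 77.7 normalized reads in PIA, against 7.11, 6.72, 12.0 and 15.6 in naive tissue. Relative to the mean, the 4 PIA libraries lay closer together than for the other called members, and the change was 3.22 log2 (SE 0.36, limma adjusted p = 1.39e-10), or 9.29-fold. Cxcl12 stood at 168, 106, 204 and 132 normalized reads in PIA and at 285, 362, 459.9 and 208 in naive libraries. The highest PIA library lay just under the lowest naive one. The change was -1.08 log2 (SE 0.30, limma adjusted p = 0.00275), and all 4 PIA libraries were lower.

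**Figure D1:**
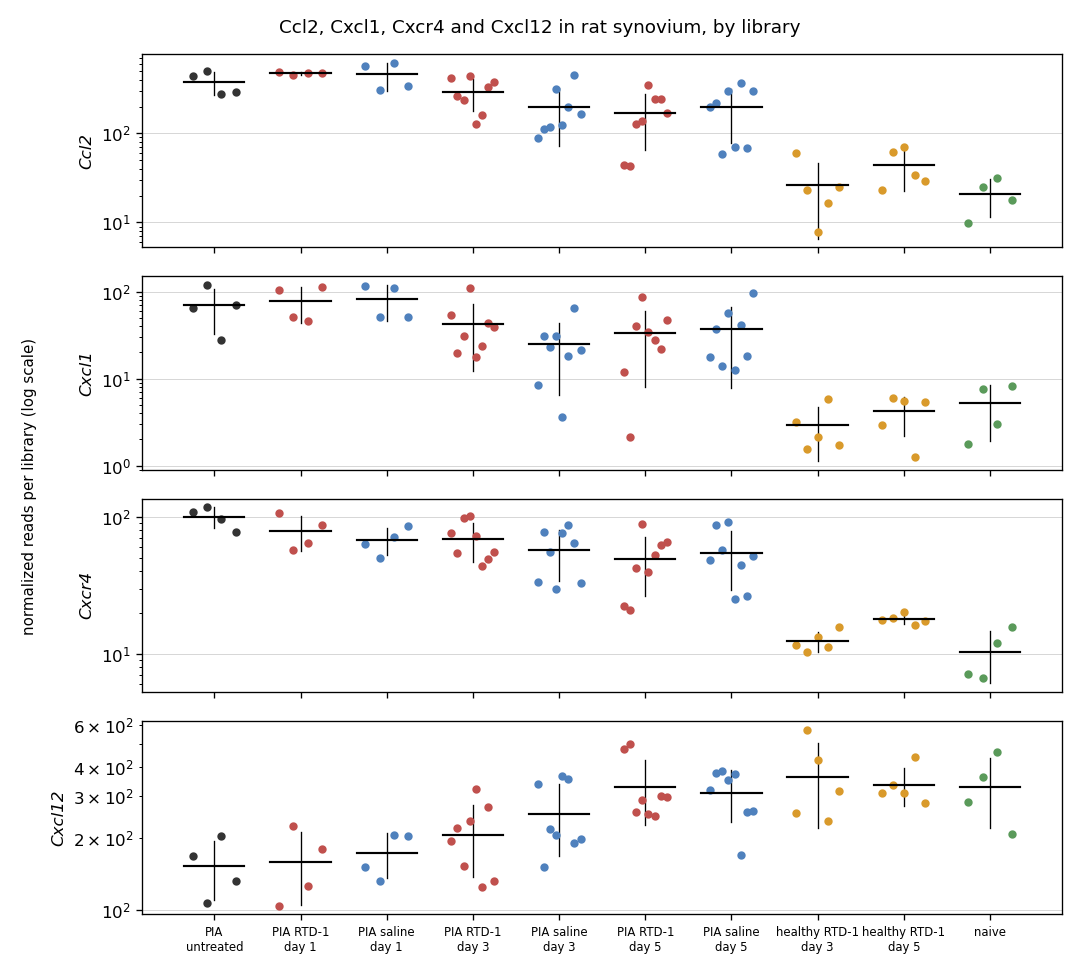
Normalized reads of Ccl2, Cxcl1, Cxcr4 and Cxcl12 on log axes, 1 point per library, in the 10 groups, with the group mean (horizontal line) and SD (vertical line). Ccl2, Cxcl1 and Cxcr4 are high in untreated PIA and low in naive and healthy RTD-1 tissue, while Cxcl12 is lowest in untreated PIA, at a mean of 153, and stands at 328 in RTD-1 day 5, 311 in saline day 5 and 329 in naive tissue.

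The order of the group means separated arthritic from non-arthritic tissue for Cxcl1, Ccl2, Cxcr4, Cxcl10, Ccl5 and Cxcl12. The step between them exceeded the larger SD for the first 3 alone. For Cxcl12 the step was 0.818 normalized reads, naive over RTD-1 day 5, and for Ccl5 it was 0.148, PIA over healthy RTD-1 day 3. Such steps are close to ties. Mean Cxcl1 ran from 25.1 to 82.3 normalized reads in the 7 arthritic groups and from 2.91 to 5.197 in the 3 others. Mean Ccl2 ran from 170.4 to 472 in arthritic groups and from 21.1 to 43.9 in the others, and mean Cxcr4 from 49.2 to 100.3 and from 10.4 to 17.9. Neighbours in each order differed by less than the larger of their SDs, apart from the step between arthritic and other tissue for these 3 genes and the step between the 2 healthy RTD-1 groups for Cxcr4. Cxcl12 ran the other way, from 153 in untreated PIA to 362 in healthy RTD-1 day 3, and no neighbours in its order differed beyond their SD. Cxcl10 means lay between 5.31 and 17.8, with arthritic groups above the others, and each of its steps was within the SD. Steps were also within the SD for Ccl3, whose means ran from 0.739 in naive tissue to 7.13 in untreated PIA, for Ccl5, from 0.743 in naive tissue to 9.15 in saline day 5, and for Ccl4, from 0.442 to 2.62. For Ccl3, Ccl4 and Cxcl2 the arthritic and other groups were interleaved. Ccl3 in healthy RTD-1 day 3 lay above RTD-1 day 5, and Ccl4 in naive tissue above RTD-1 day 5 and saline day 3. Cxcl2 in healthy RTD-1 day 3 lay above saline day 1.

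Before the arms are compared, single libraries stand out in the low members. Cxcl10 in day 3 tissue ranged over 0, 7.88 and 36.4 normalized reads (lowest, median and highest) with RTD-1 and 1.27, 9.14 and 80.3 with saline. The saline mean of 17.8 ± 26.0 (SD, n = 8) therefore owed much to replicate 6. Cxcl2 had 11 reads, spread over all 4 libraries, in RTD-1 day 1 and 2 reads, in 1 of 4 libraries, in saline day 1. It had no read in any of the 8 libraries of RTD-1 day 3 or of saline day 5, where 3 reads over the group would be 0.485 and 0.358 normalized reads. With the 13 reads of untreated PIA taken as exact and 3 reads as a ceiling for those groups, the ratios were 6.99 and 9.48. These ratios hold no error of the 13 reads and no spread between PIA libraries, 1 of which also had no read. Without the filter on low values, the fitted change of Cxcl2 from PIA was -1.77 log2 in both RTD-1 day 3 and saline day 5. It was -1.65 in RTD-1 day 5. Limma did not call Cxcl2 in RTD-1 day 3 (adjusted p = 0.195) and called it lower in RTD-1 day 5 (adjusted p = 0.0105) and saline day 5 (adjusted p = 0.00941). The adjusted p depends on the p-values of all genes in a comparison, so equal changes received different values. Ccl5 in saline day 5 ranged over 1.11, 7.19 and 28.5, with the highest value in replicate 1, the deepest saline library.

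**Figure D2:**
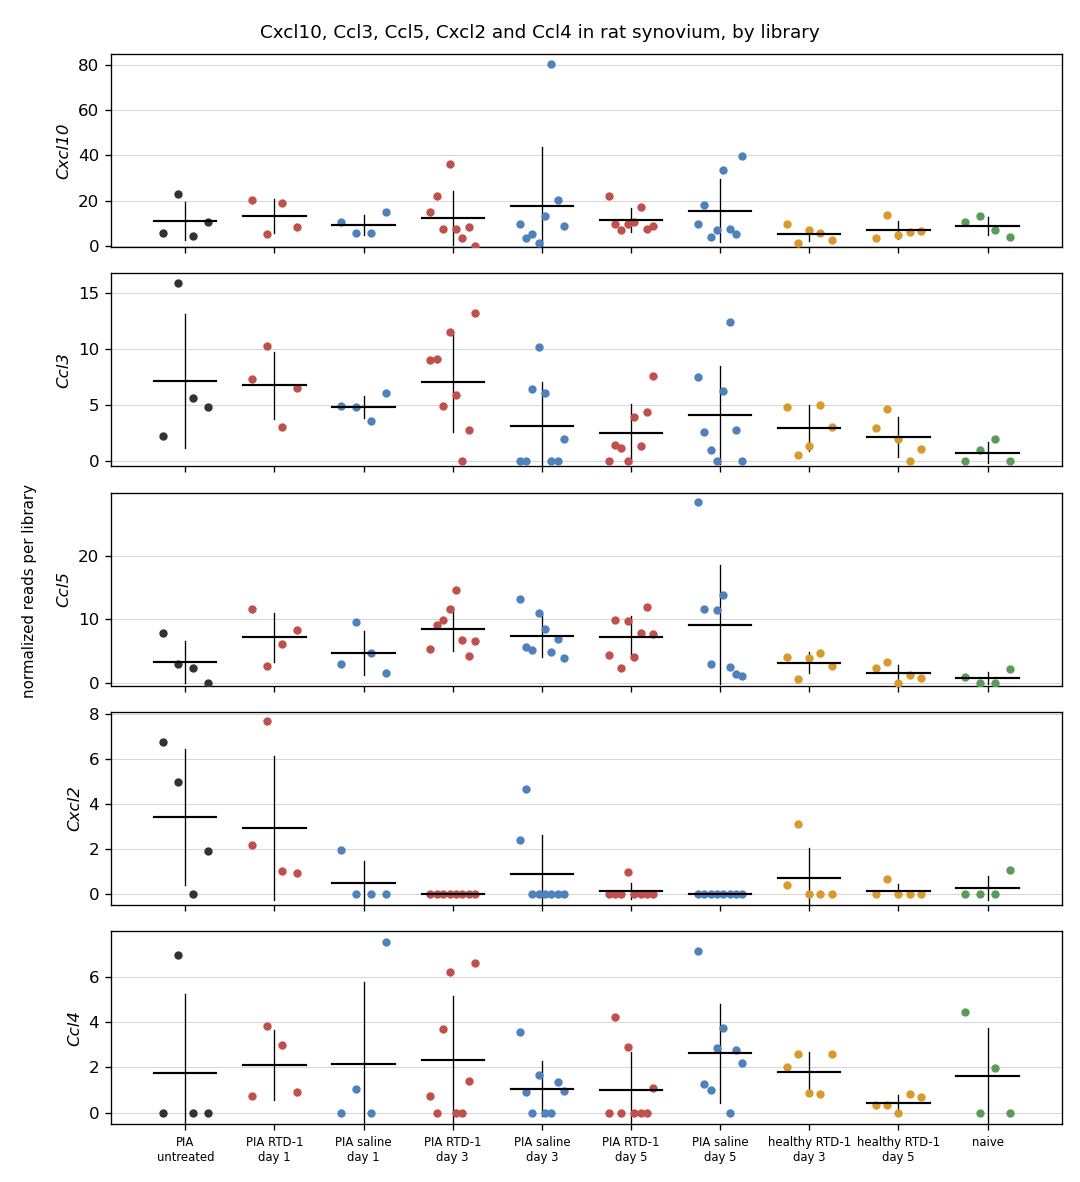
Normalized reads of Cxcl10, Ccl3, Ccl5, Cxcl2 and Ccl4, 1 point per library, in the 10 groups, with the group mean (horizontal line) and SD (vertical line). Most values are under 20 normalized reads, single libraries such as the Cxcl10 value of 80.3 in saline day 3 carry their group means, and Cxcl2 is at 0 in all libraries of RTD-1 day 3 and saline day 5.

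The comparison of RTD-1 with saline of the same duration asked whether the peptide changed these transcripts in arthritic rats. None of the 7 members tested was called by limma on day 1, day 3 or day 5, or in the mean of the 3 days, where 0%, 0.00766%, 0% and 0% of all genes were called. At an unadjusted p under 0.05 the members numbered 0, 1, 0 and 0, against 612, 1010, 470 and 760 of all genes. The lowest limma adjusted p among members was 0.918 on day 1, 0.540 on day 3, 0.998 on day 5 and 0.999 in the mean. The limma voom test on recovered reads called no member either.

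On day 1 the arms lay close together. Ccl2 read 493, 447, 476 and 471 normalized reads with RTD-1 and 578, 303, 618 and 340.4 with saline, and Cxcr4 read 108, 57.6, 64.2 and 87.1 with RTD-1 and 63.4, 49.8, 70.9 and 85.9 with saline. The RTD-1 libraries of Ccl2 were tightly grouped inside the wider saline range. Cxcl1 stood at 104, 51.2, 46.1 and 114 normalized reads with RTD-1, against 117, 50.8, 109.9 and 51.2 with saline. In both arms a pair of libraries was high and a pair low.

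On day 3 the fitted values of Ccl2, Cxcl1 and Ccl3 were higher with RTD-1, but none passed. Ccl2 ranged over 127, 298 and 443 normalized reads (lowest, median and highest) with RTD-1 and 88.3, 146 and 451 with saline, a change of 0.68 log2 (95% interval -0.15 to 1.50, limma adjusted p = 0.727). Cxcl1 ranged over 17.6, 35.2 and 110.0 with RTD-1 and 3.65, 22.2 and 64.4 with saline, a change of 0.85 log2 (95% interval -0.12 to 1.81, limma adjusted p = 0.694). Their ranges overlapped across most of their width. Ccl3 had reads in 7 of 8 RTD-1 libraries and 4 of 8 saline libraries, at means of 7.06 ± 4.48 and 3.07 ± 3.95 normalized reads (SD, n = 8 each). Its change of 1.33 log2 (95% interval 0.20 to 2.46) was the 1 member change with an unadjusted p under 0.05 (limma adjusted p = 0.540). Cxcr4 changed by 0.31 log2 (95% interval -0.19 to 0.82) and Cxcl12 by -0.29 (95% interval -0.71 to 0.13). Ccl5 averaged 8.49 ± 3.48 normalized reads in the RTD-1 libraries and 7.36 ± 3.27 in the saline libraries, as mean ± SD of 8, with overlapping ranges.

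On day 5 the fitted differences of Ccl2, Cxcl1, Cxcr4 and Cxcl12 were smaller than on day 3 and of the opposite sign, and none passed. Ccl2 ranged over 43.5, 155 and 347 normalized reads with RTD-1 and 58.7, 209 and 364 with saline (-0.21 log2, 95% interval -1.04 to 0.61). Cxcl1 ranged over 2.11, 30.9 and 86.2 with RTD-1 and 12.5, 27.6 and 97.2 with saline (-0.26 log2, 95% interval -1.22 to 0.71). Cxcr4 changed by -0.15 log2 (95% interval -0.65 to 0.36) and Cxcl12 by 0.07 (95% interval -0.35 to 0.49). In the mean of the 3 days the intervals ran from -0.36 to 0.74 for Ccl2, from -0.47 to 0.82 for Cxcl1, from -0.21 to 0.46 for Cxcr4 and from -0.41 to 0.15 for Cxcl12. No member effect differed between days by the tests of the difference, in which limma called 0.00766% of all genes for day 3 minus day 1 and 0% for both differences with day 5. The lowest was Ccl3 for day 5 minus day 3, at -1.71 log2 (limma adjusted p = 0.666), and it was the 1 member effect with an unadjusted p under 0.05 in these tests. Limma voom called none of them.

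**Figure D3:**
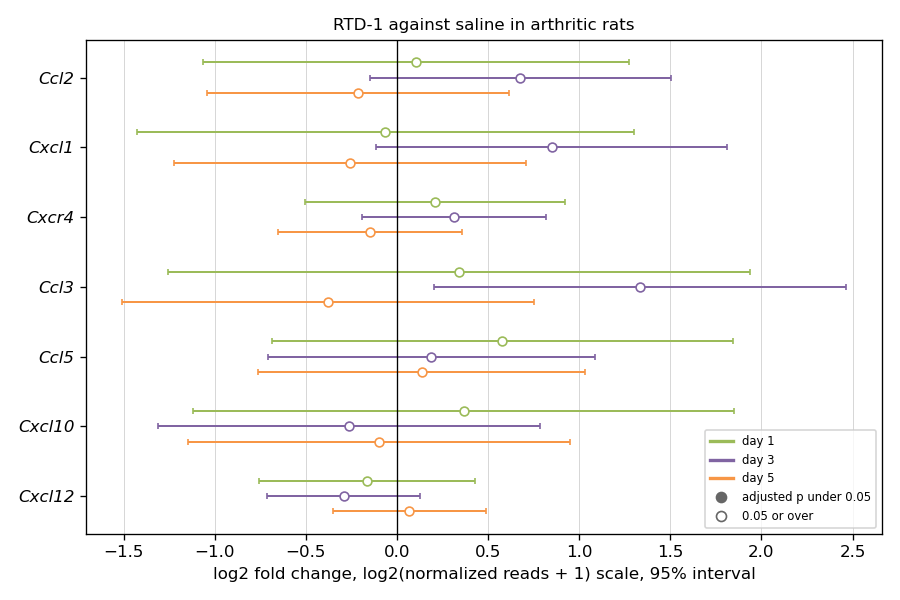
Log2 fold change of RTD-1 over saline on days 1, 3 and 5 for the 7 tested members, with 95% intervals and open circles where the limma adjusted p was 0.05 or over. All circles are open, and the interval of Ccl3 on day 3, from 0.20 to 2.46, is the 1 interval that does not cross 0.

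The day 3 and day 5 arms each held 2 sets of replicate numbers, 1 to 4 and 5 to 8, that the labels do not call a batch. Day 5 is given first. Ccl2 averaged 88.6 ± 51.6 normalized reads in RTD-1 replicates 1 to 4 and 252 ± 72.1 in RTD-1 replicates 5 to 8, against 194 ± 99.98 and 201 ± 154 in the matching saline sets (SD, n = 4 each). The RTD-1 sets did not overlap, with the first reaching 138 and the second starting at 172. The Ccl2 change was -1.11 log2 in replicates 1 to 4 (limma adjusted p = 0.289) and 0.68 in replicates 5 to 8 (limma adjusted p = 0.888). Cxcr4 averaged 43.4 ± 31.4 and 55.0 ± 11.7 in the same RTD-1 sets, against 71.5 ± 21.7 and 37.0 ± 13.4 in the saline sets (SD, n = 4 each). Its change was -0.90 (limma adjusted p = 0.200) and 0.60 (limma adjusted p = 0.877). The pooled day 5 values therefore average changes of opposite sign, neither of which passed the test. On day 3 the Ccl2 change was 1.23 log2 in replicates 1 to 4 (limma adjusted p = 0.432) and 0.12 in replicates 5 to 8 (limma adjusted p = 0.964). Cxcr4 on day 3 changed by 0.80 and -0.18 (limma adjusted p = 0.422 and 0.870). Mean Cxcl10 was 20.2 and 4.77 normalized reads in the day 3 RTD-1 sets and 4.92 and 30.7 in the saline sets.

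Against untreated PIA, the arthritic groups given saline or RTD-1 share the same 4 PIA libraries, so each comparison is given on its own. After 1 day 0 members were called in either arm, as were 0% of all genes; at an unadjusted p under 0.05 no member passed either, beside 273 genes with RTD-1 and 699 with saline. After 3 days 0 members were called with RTD-1 (0.00766% of all genes) and 0 with saline (0.0153%). At an unadjusted p under 0.05 the day 3 counts were 1 member with RTD-1 and 6 with saline, beside 1136 and 1924 of all genes. The member with RTD-1 was Ccl5, higher by 1.45 log2 (limma adjusted p = 0.498). Ccl5 was among the 6 with saline as well, higher by 1.26 log2 (limma adjusted p = 0.263). In saline day 3 the change from PIA was -1.64 log2 for Cxcl1 (limma adjusted p = 0.190), -0.89 for Cxcr4 (adjusted p = 0.177) and 0.70 for Cxcl12 (adjusted p = 0.197). It was -1.10 for Ccl2 (limma adjusted p = 0.292) and -1.41 for Ccl3 (adjusted p = 0.326), and none of the 6 passed. Limma voom called no member on days 1 and 3.

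After 5 days Cxcl12 was higher than in untreated PIA and Cxcr4 lower, in both arms. Cxcl12 ranged over 247, 294 and 499.9 normalized reads with RTD-1 and 169, 336 and 385 with saline, against 168, 106, 204 and 132 in untreated PIA. Every RTD-1 library lay above every PIA library, and 1 saline library, replicate 6, fell inside the PIA range. The change was 1.09 log2 with RTD-1 (SE 0.26, limma adjusted p = 0.00518) and 1.02 with saline (SE 0.26, limma adjusted p = 0.0110). Without PIA replicate 2 or 4 the adjusted p in the saline arm was 0.0774 or 0.0550. Cxcr4 ranged over 21.1, 47.3 and 88.2 with RTD-1 and 25.0, 50.2 and 92.5 with saline, overlapping the 77.7 to 117 of PIA at the upper end. Its change was -1.14 log2 with RTD-1 (SE 0.31, limma adjusted p = 0.0119) and -0.99 with saline (SE 0.31, limma adjusted p = 0.0351). The saline change was -0.78 with TMM factors (limma adjusted p = 0.0694), -0.95 with a replicate block (limma adjusted p = 0.0707) and -0.52 in saline replicates 1 to 4 (limma adjusted p = 0.465). The adjusted p of Cxcr4 in the saline arm lay between 0.0503 and 0.123 without any 1 of the 4 PIA libraries, and was 0.0770 without saline replicate 5 and 0.0904 without saline replicate 7. In the RTD-1 arm it was 0.0556 without PIA replicate 2.

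These 2 members were the ones called in each arm, where limma called 12.7% of all genes with RTD-1 (1.33% higher and 11.3% lower) and 8.37% with saline (1.28% higher and 7.09% lower). With TMM factors the splits over all genes were 690 higher and 591 lower with RTD-1 and 703 higher and 585 lower with saline, against 174 and 1482 and against 167 and 926 as deposited. Ccl2 was lower than in PIA by the fitted values, at -1.41 log2 with RTD-1 (limma adjusted p = 0.0544) and -1.20 with saline (adjusted p = 0.122), and so was Cxcl1, at -1.34 (adjusted p = 0.118) and -1.08 (adjusted p = 0.237). Neither passed, although limma voom called both lower with RTD-1 (adjusted p = 0.0254 for Ccl2 and 0.0319 for Cxcl1). Ccl2 with RTD-1 was also called with a pseudocount of 8 (limma adjusted p = 0.0421) and a filter of 50 (0.0428). It was called without RTD-1 replicate 5, 6 or 7 too (limma adjusted p = 0.0309, 0.0406 and 0.0386). Over its 25 alternatives the limma adjusted p ran from 0.00418 to 0.166. In replicates 1 to 4 the Ccl2 change was -2.24 with RTD-1 (limma adjusted p = 0.00418) and -1.13 with saline (limma adjusted p = 0.296). Their day 5 values spread widely, from 43.5 to 364 normalized reads for Ccl2 over the 2 arms, against 279.7 to 498 in PIA.

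Day 5 tissue was then set against naive tissue. In both arms Ccl2, Cxcl1, Cxcr4 and Ccl5 were called higher and no member lower, which is 4 of the 7 tested, where 25.6% of all genes were called with RTD-1 (14.5% higher and 11.1% lower) and 27.1% with saline (16.5% higher and 10.7% lower). These comparisons share the naive libraries, and those with PIA against naive as well. Cxcl1 and Ccl5 had enough reads for the test in arthritic libraries alone, which favours such calls, so the count of 4 is no test of the set. Ccl2 was higher by 2.76 log2 with RTD-1 (SE 0.50, limma adjusted p = 2.83e-05) and 2.97 with saline (SE 0.50, limma adjusted p = 7.00e-06), and its lowest day 5 library, at 43.5, exceeded the highest naive one, at 31.9. Cxcr4 was higher by 2.07 log2 with RTD-1 (SE 0.31, limma adjusted p = 3.47e-07) and 2.22 with saline (SE 0.31, limma adjusted p = 6.45e-08), again with no overlap. Cxcl1 was higher by 2.19 log2 with RTD-1 (SE 0.59, limma adjusted p = 0.00356) and 2.45 with saline (SE 0.59, limma adjusted p = 0.00105). Its RTD-1 replicate 2, at 2.11 normalized reads, lay among the naive values, and limma voom on recovered reads did not call Cxcl1 in either arm (adjusted p = 0.170 with RTD-1 and 0.0842 with saline). In replicates 1 to 4 the RTD-1 change of Cxcl1 was 1.83 (limma adjusted p = 0.0611).

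Ccl5 was higher at day 5 than in naive tissue by 2.27 log2 with RTD-1 (SE 0.55, limma adjusted p = 0.00109) and 2.14 with saline (SE 0.55, limma adjusted p = 0.00199). It ranged over 2.34, 7.73 and 11.9 normalized reads with RTD-1 and 1.11, 7.19 and 28.5 with saline, against 0.889, 0, 0 and 2.08 in naive libraries. Naive tissue held 3 reads in all, so the ratio of reads, 10.2 with RTD-1 (exact 95% interval 3.31 to 50.8) and 18.2 with saline (6.07 to 89.7), has wide intervals that cover counting error only. Saline replicate 1 held 76 of the 111 saline reads, and without it the saline ratio was 8.42 (2.66 to 42.8). Without naive replicate 4, which held 2 of the 3 naive reads, the ratios were 23.4 with RTD-1 and 41.9 with saline. Cxcl12 lay within the naive range of 208 to 459.9 in most day 5 libraries, with a change from naive of 0.00 log2 with RTD-1 (95% interval -0.51 to 0.52, limma adjusted p = 0.994) and -0.06 with saline (95% interval -0.58 to 0.45, limma adjusted p = 0.890). Ccl3 and Cxcl10 were not called in either arm.

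**Figure D4:**
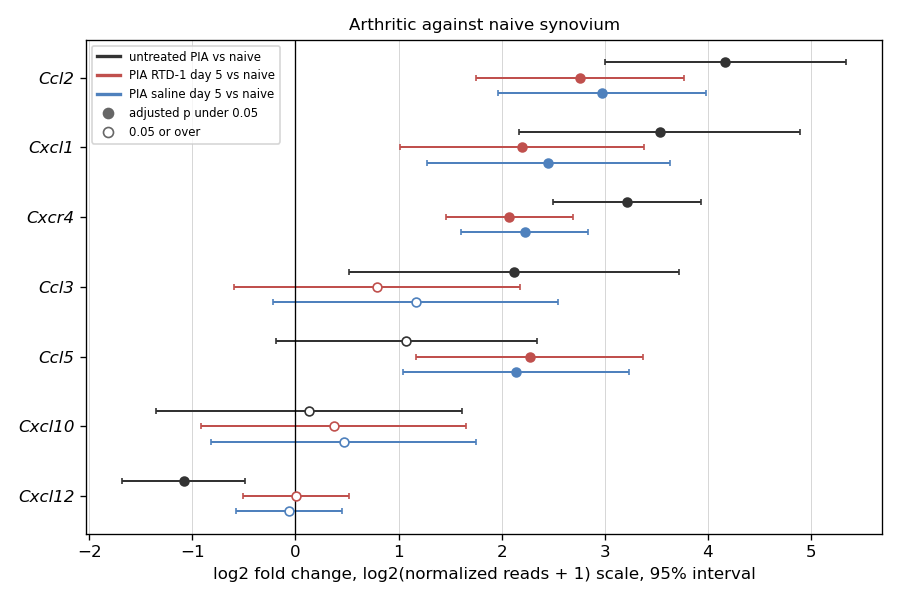
Log2 fold change over naive synovium in untreated PIA, RTD-1 day 5 and saline day 5 for the 7 tested members, with 95% intervals, filled circles where the limma adjusted p was under 0.05 and open circles otherwise. The 3 comparisons share the naive libraries. Ccl2, Cxcl1 and Cxcr4 are filled throughout, Ccl5 at day 5 alone, and Ccl3 and Cxcl12 in untreated PIA alone. Set directly against untreated PIA, neither Ccl5 nor Ccl3 was called at day 5 in either arm by the main fit.

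Healthy rats given RTD-1 had no called change in these transcripts. None of the 7 members passed on day 3 or day 5 against naive tissue, where the calls over all genes came to 11.8% for day 3, made up of 11.1% higher and 0.689% lower, and to 13.5% for day 5, made up of 12.9% higher and 0.612% lower. Those counts, 1546 and 1764 genes, became 708 and 645 with TMM factors, and the depths of the healthy and naive libraries did not overlap. At an unadjusted p under 0.05 the members numbered 1 and 1, against 3513 and 3759 of all genes, and limma voom called none. Cxcr4 on day 5 read 17.7, 18.2, 20.3, 16.2 and 17.3 normalized reads, against 7.11, 6.72, 12.0 and 15.6 in naive tissue. The groups did not overlap, but the change of 0.81 log2 had a limma adjusted p of 0.0974, and it was 0.52 with TMM factors. With limma's array weights it was 0.93 (adjusted p = 0.0104). Ccl2 on day 5 read 23.3, 62.1, 71.1, 34.0 and 29.2, against 9.78, 25.0, 31.9 and 17.7 in naive tissue, a change of 1.01 log2 (limma adjusted p = 0.218) with overlapping ranges. Ccl5 on day 3 read 4.01, 0.517, 3.89, 4.61 and 2.61, against 0.889, 0, 0 and 2.08 (1.28 log2, limma adjusted p = 0.158; 1.39 with array weights, adjusted p = 0.0340). Cxcl1 stayed at 5.94 or less in all 10 healthy RTD-1 libraries.

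The members were also compared with each other. Across the 10 group means of log2(normalized reads + 1), Cxcl1 was most like Ccl2 (Pearson r = 0.979), Cxcr4 most like Ccl2 (r = 0.981), Cxcl10 most like Cxcl1 (r = 0.717), Ccl3 most like Ccl2 (r = 0.794) and Ccl5 most like Cxcr4 (r = 0.688). Cxcl12 ran against Ccl2 at r = -0.852. Other genes were closer still in each case: among the 13061 other genes tested, Ccl2 ranked 59 in likeness to Cxcl1 and 108 in likeness to Cxcr4. In likeness to Cxcl10, Cxcl1 ranked 635. In likeness to Ccl5, Cxcr4 ranked 1087, and in likeness to Ccl3, Ccl2 ranked 1764.

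The same was asked within groups. The 44 arthritic libraries were each centred on the mean of their group, and 5 members, for 10 pairs chosen after the data were seen, were tested with 100000 permutations within groups. For Cxcl1 and Ccl2, Pearson's r was 0.717 (permutation p = 1e-05, the smallest these permutations can give, adjusted over the pairs 0.0001) and Spearman's rho was 0.697 (permutation p = 2e-05, adjusted 0.0002). It was 0.695 without the 2 libraries farthest from the median of Cxcl1, 0.723 with TMM factors, and 0.725 and 0.760 in replicates 1 to 4 and 5 to 8 of days 3 and 5 (n = 16 each). Ccl2 ranked 13 of 13061 genes by this measure, and the median r of Cxcl1 with all genes was 0.0253. Cxcl12 ran against Cxcl1, with r = -0.490 (permutation p = 0.00149, adjusted 0.00745) and rho = -0.443 (permutation p = 0.00439, adjusted 0.0168), and r was -0.383 without the 2 farthest libraries. Libraries with more Cxcl1 than their group mates tended to hold more Ccl2 and less Cxcl12.

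**Figure D5:**
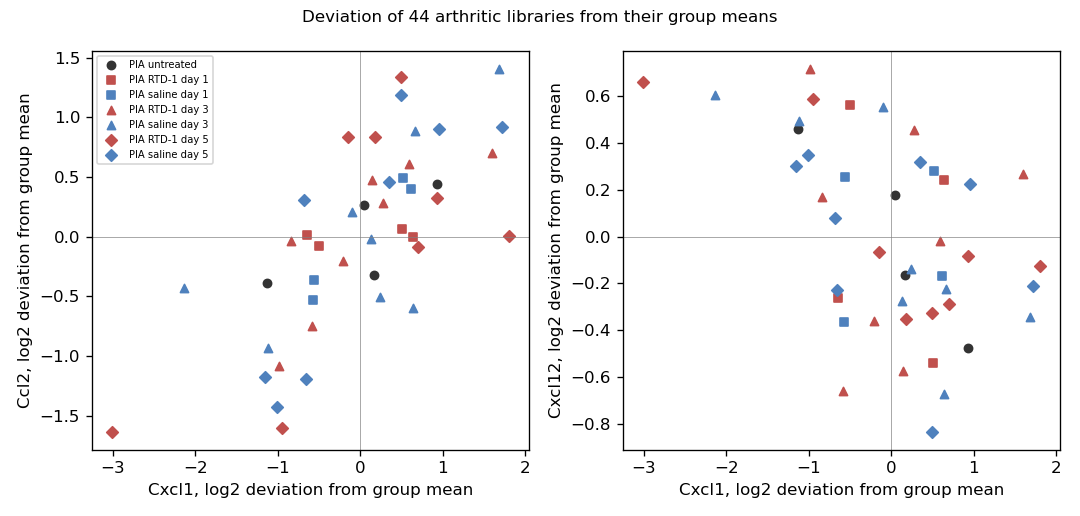
Deviation of each of 44 arthritic libraries from its group mean, in log2, for Cxcl1 against Ccl2 (left) and Cxcl1 against Cxcl12 (right), with colours and symbols for the 7 arthritic groups. The left cloud rises with r = 0.717 and the right cloud falls with r = -0.490.

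Cxcr4 followed Cxcl1 with r = 0.483 (permutation p = 0.00436, adjusted 0.0145; rho = 0.458, permutation p = 0.00504, adjusted 0.0168), but r was 0.703 in replicates 1 to 4 of days 3 and 5 and 0.174 in replicates 5 to 8. For Cxcr4 with Ccl2, r was 0.433 (permutation p = 0.0178, adjusted 0.0356) and rho was 0.366 (permutation p = 0.0342, adjusted 0.0690). That r was 0.295 without the 2 libraries farthest from the median of Cxcr4. The median r of Cxcr4 with all genes was 0.209, and Ccl2 ranked 1007 of 13061 genes. For Cxcl12 with Ccl2, r was -0.399 (permutation p = 0.0105, adjusted 0.0263) and rho was -0.334 (permutation p = 0.0345, adjusted 0.0690). No Cxcl10 pair passed, with r from 0.0962 to 0.252 and adjusted permutation p from 0.252 to 0.606. The receptor and its ligand, Cxcr4 and Cxcl12, had r = -0.0450 within groups (permutation p = 0.787), while r over the 10 group means was -0.811. The value within groups was -0.264 with TMM factors, -0.215 with reads in genes, -0.413 in replicates 1 to 4 of days 3 and 5 and 0.286 in replicates 5 to 8.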

How the data were processed

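Single-end reads of 75 nt came from stranded libraries of total RNA. The submitters' processing notes name HISAT and DESeq, without versions; settings, build and annotation were not found in the labels. The values that the authors deposited are log2 normalized counts per gene and library. Each was found to be log2 of whole reads divided by 1 factor per library (1.71 to 17.5 megareads), with 0 reads held as 0.9 read, and 100% of values came back whole within 0.001. Reads were rescaled to the median factor of 5.75 megareads. The 1 row without an identifier held 0.000384% to 0.0137% of reads and was left out.

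The 13062 genes that reached 10 normalized reads in 4 or more libraries were fitted in limma 3.58.1 (R 4.3.3) on log2(normalized reads + 1), with 10 group means over all 58 libraries, moderated with trend and robust settings and adjusted by Benjamini-Hochberg. The fit was tested on simulated data. All 9 members are named. The members and gene lists were chosen with earlier results of these data known, and the lists could not be matched to identifiers, so they were not analysed here. The deviations of same-numbered libraries correlated with r from -0.215 to 0.277, not above 0.1 in every pair of any comparison, so the numbers were not used as pairs. For RTD-1 with saline, 2 of 8 pairs on day 3 and 3 of 8 on day 5 exceeded 0.1. The rule asks for every pair, so it cannot show that no libraries are linked by number. Ratios of reads carry exact Clopper-Pearson intervals and floors are 3 reads, for counting error only, and PCR copies are not independent molecules. Correlations used SciPy 1.17.1 and NumPy 2.4.6. Alternatives were other pseudocounts (0.5 and 8), filters (none and 50), TMM factors, reads in genes, limma voom on recovered reads, array weights, only the groups compared, a replicate block, the replicate sets 1 to 4 and 5 to 8, the removal of each library in turn and of the 3 deep saline libraries, and, chosen after seeing the data, removal of the 2 shallowest libraries. The correlations and their alternatives, and the ratios of reads with a library left out, were also chosen after seeing the data.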

Additional observations from a re-analysis of the deposited data

Results flagged for a closer look

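Each member was checked in each group of 4, 5 or 8 libraries for a single library far from the others (Dixon's 95% criterion). Of 88 such checks 6 met it, and all 6 rest on between 1 and 7 reads. The nominal chance rate of about 1 in 20 does not apply to such counts, because a group with reads in 1 library alone always meets the criterion. For Cxcl2, RTD-1 day 5 replicate 4 held 0.969 normalized reads (1 read), saline day 1 replicate 1 held 1.95 (2 reads), healthy RTD-1 day 5 replicate 2 held 0.660 (2 reads) and naive replicate 4 held 1.04 (1 read), with the rest of each group at 0. Cxcl2 in healthy RTD-1 day 3 replicate 2 stood at 3.10 (6 reads), with the others at 0.401 or less. For Ccl4, PIA replicate 2 held 6.96 normalized reads (7 reads) and the other 3 PIA libraries held 0.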

How the results depend on the processing

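Of 1237 alternative member effects, 1177 kept their direction and side of the threshold, and of the alternative counts of members called 467 equalled the reported count and 37 differed from it. The count of members called moved to 1 in saline day 5 against PIA (TMM factors, reads in genes, replicate block, replicates 1 to 4, only the groups compared; 0 to 2 with single libraries left out). It moved to 4 in RTD-1 day 5 against PIA (voom, replicates 1 to 4; 1 to 3 with libraries left out) and, with array weights, to 1 in saline day 3 against PIA and in healthy RTD-1 on day 3 and on day 5. It was 4 to 6 in PIA against naive with libraries left out. The replicate numbers were not used as pairs in the main fit. With the replicate block, Cxcr4 in saline day 5 against PIA was -0.95 log2 (limma adjusted p = 0.0707). Changes near 0 turned sign: Cxcl10 in PIA against naive was -0.13 with TMM factors, -0.20 with reads in genes and -0.29 to 0.42 with libraries left out. For RTD-1 against saline, replicates 5 to 8 gave Cxcr4 -0.18 on day 3 and 0.60 on day 5, Ccl2 0.68 and Cxcl1 0.0099 on day 5, and array weights gave Ccl2 0.11 and Cxcl12 -0.029 on day 5. Day 5 ranges with libraries left out were -0.42 to 0.020 for Ccl2, -0.51 to 0.17 for Cxcl1 and -0.051 to 0.12 for Cxcl12. Cxcl12 against naive was -0.027 (TMM factors), -0.13 (reads in genes), -0.033 (array weights) and -0.19 to 0.19 (libraries left out) in RTD-1 day 5, and 0.049 (replicate block), 0.18 (replicates 1 to 4) and -0.26 to 0.12 (libraries left out) in saline day 5. Genes called over all genes in RTD-1 day 5 against PIA (1656) were 2561 with array weights, 986 with the replicate block and as few as 549 with a library left out. In saline day 5 against PIA (1093) they were 1762 with array weights, 673 with the block, 69 in replicates 1 to 4, 163 with only the groups compared and 250 to 2003 with libraries left out. In saline day 3 against PIA (2) they were 0 to 589 over the alternatives. In healthy RTD-1 they were 708 (TMM factors), 624 (reads in genes) and 3776 (array weights) on day 3, and 645, 562 and 4350 on day 5. Replicates 1 to 4 gave 84 for the effect on day 5 minus day 3. The causes were not tested. Low depth limits Cxcl2, Ccl4, Ccl3 and Ccl5, whose values rest on few reads.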
